A study of Mus musculus with 11 samples.

Results

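The regions described here are the distal peaks of open chromatin that belong to genes with 20 or more peaks. In the deposited peak table, peaks were counted per assigned gene, genes with at least 20 were kept, and of their peaks those more than 1 kb and at most 100 kb from the gene's start were taken. This gave 2545 of 45508 peaks (5.59%), assigned to 130 of the 14922 genes that had any peak. The rule uses positions and names only, not accessibility. The same 130 genes had 193 further peaks within 1 kb of a start and 793 beyond 100 kb, and other genes had 28037 peaks at the same distances. ATAC-seq, which inserts sequencing adapters into open DNA with the transposase Tn5, was done on naive CD4 T cells of untreated mice that were sorted without stimulation. All mice carried the Tg(Nr4a1-EGFP)GY139Gsat transgene, a bacterial artificial chromosome that makes green fluorescent protein under Nr4a1 (Nur77) control and reports T cell receptor signalling, together with the Foxp3tm1Flv red reporter allele, on a C57/BL6 background. Cells from spleen and lymph nodes that were CD4 positive, CD44 low and negative for the Foxp3 reporter were split into population D (Nur77-GFP high, Ly6C negative, n = 3), C (intermediate, Ly6C negative, n = 3), B (intermediate, Ly6C positive, n = 3) and A (low, Ly6C positive, n = 2). Libraries came from mice 1, 2 and 3, and mouse 2 has no library of A. D and A differ in both the reporter and Ly6C, so the effects of these markers cannot be told apart in that comparison.

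Distal open regions include many enhancers, stretches of DNA that bind transcription factors and act on promoters some way off. Whether the peaks described here act as enhancers was not tested. Genes that define a cell type often lie among many enhancers, and each enhancer can respond to its own inputs. In naive T cells such genes include Foxp1, Ets1, Bach2 and Lef1, transcription factors of T cell identity and quiescence. The table assigns a peak to the nearest annotated start and does not show its target gene, so a gene in a large gene-poor stretch also collects many peaks.

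All 130 genes were matched by identifier to RefSeq (GRCm38.p6, the assembly of the mm10 build), where 107 were protein coding, 13 were long noncoding RNAs, 6 were microRNAs, 2 were transcribed pseudogenes and 2 were ribosomal RNA genes. A gene held 1 to 71 of the distal peaks (median 19), spread over a median of 134 kb and at most 554 kb, at Foxp1. Introns held 1522 of the peaks, 1392 in an intron of the assigned gene itself and 130 in an intron of another gene, and 980 were intergenic. Widths ran from 9 to 2462 bases. Values are in rppm, reads scaled to a common total, and the mean level of a peak over the 11 libraries ran from 1.53 to 255 rppm, with 592 peaks under 5 rppm.

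The scaling totals recovered from the values ran from 2597176 reads (D, mouse 1) to 36859228 reads (D, mouse 3). The median distal peak thus held 23 reads in the first of these libraries and 360 in the second. The 130 genes' distal peaks took 4.35% to 4.84% of the reads in listed peaks in every library. Marker genes of CD4 T cells all had peaks (8 of 8 genes), while of B cell markers 4 of 8 genes had a peak, and Ms4a1, Pax5 and Blk were among those with none. The B cell markers summed to 153 to 200 rppm in D, 156 to 184 in C, 162 to 194 in B and 193 to 199 in A. Between D and A, B cell markers had 0 called of 11 peaks, myeloid markers 2 higher and 3 lower of 16, and CD8 T and NK markers 3 and 3 of 27. The myeloid markers summed to 85.9 to 111 rppm in D, 110 to 126 in C, 123 to 132 in B and 114 to 118 in A. Regulatory T cell markers, of which all 8 had a peak, moved with the comparison. Of their 52 peaks, 16 were higher and 3 lower in D than in A, and their sum was 767 to 823 rppm in D, 655 to 706 in C, 652 to 678 in B and 644 to 670 in A. The part of regulatory-like cells in the results below was not tested.

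No genome sequence was used here, so sequences are shown only where a distal peak contains a RefSeq promoter window, that is the 250 bases before and 50 bases after an annotated start. Of the distal peaks 27 overlapped such a window, 3 of them that of the assigned gene, 15 held a whole one, and 5 of the 27 changed between D and A. The pair below are whole windows, 1 inside a peak higher in D and 1 inside a peak lower in D. Each covers only part of its peak. The window of Gm40948 lies in the peak at chromosome 13, 52083395 to 52084497, assigned to the long noncoding RNA 4921525O09Rik. The window of Gm14010 lies in the peak at chromosome 2, 128422459 to 128423072, assigned to Gm14005, which RefSeq names Morrbid. Both are written 5′ to 3′ on the strand of the named start, in RefSeq's GRCm38.p6 sequence, with matches to 6 motifs in capitals.
Gm40948 (chr13:52083558-52083857, minus strand): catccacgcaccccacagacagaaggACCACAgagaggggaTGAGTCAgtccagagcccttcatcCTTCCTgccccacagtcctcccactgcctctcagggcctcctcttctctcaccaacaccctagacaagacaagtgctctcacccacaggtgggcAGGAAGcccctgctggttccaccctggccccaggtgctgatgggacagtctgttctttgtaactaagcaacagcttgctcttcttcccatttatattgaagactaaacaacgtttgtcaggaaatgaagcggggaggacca
Gm14010 (chr2:128422517-128422816, plus strand): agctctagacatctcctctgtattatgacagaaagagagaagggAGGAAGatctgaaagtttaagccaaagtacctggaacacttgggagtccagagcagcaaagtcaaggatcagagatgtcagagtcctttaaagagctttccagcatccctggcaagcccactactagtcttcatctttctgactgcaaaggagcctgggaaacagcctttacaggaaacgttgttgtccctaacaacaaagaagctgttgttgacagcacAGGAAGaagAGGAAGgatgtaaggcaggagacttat
The motifs searched, on both strands, were AP-1 (TGANTCA), ETS (AGGAAG), RUNX (TGTGGT), NR4A (AAGGTCA), TCF and LEF (CTTTGAT) and an E-box (CAGCTG). They are found in 7.81%, 35.4%, 16.8%, 4.72%, 3.73% and 16.3% of all 32851 RefSeq windows of this length. The Gm40948 window holds 4 matches, reading from its left a RUNX, an AP-1 and 2 ETS matches, and the Gm14010 window holds 3 ETS matches, with no overlap between matches. A further Gm14010 window, 128422436 to 128422735, overlaps the same peak by 277 of its 300 bases. It holds the first of these ETS matches and also an NR4A match inside the peak. The peak around the Gm40948 window had 21.2, 20.8 and 20.4 rppm in D, against 7.5 and 6.04 rppm in A. The peak around the Gm14010 window had 6.93, 5.24 and 7.11 rppm in D, against 12 and 10.5 rppm in A. The D libraries lay wholly above the A libraries at the first and wholly below them at the second (log2 changes 1.49 and -0.73, limma adjusted p = 1.56e-05 and 0.00743). A match is a run of letters and was not tested as a binding site.

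Between reporter-high and reporter-low cells, distal peaks of densely covered genes changed in both directions, often around the same gene. Peaks at Foxp1, Fyn, Icos and Dock10 were almost closed in A and clearly open in D, while peaks at Gramd3, Runx1, Prkcq and the microRNA gene Mir467h were open in A and reduced in D. Among these genes, Foxp1, Dock10, Runx1 and Prkcq had distal peaks called both higher and lower. Of the 2545 peaks 255 (10.0%) were higher and 147 (5.78%) lower in D than in A, together 15.8%, against 12.4% of all 45508 peaks. A peak is called changed where the limma test on log2(rppm + 1), with 1 mean per population, gave a Benjamini-Hochberg adjusted p below 0.05 over all 45508 peaks. Among all peaks 8.7% were higher and 3.74% lower. The median log2 change was -0.01 for the distal peaks and -0.04 for all peaks. Against the most similar set, peaks of other genes at 1 to 100 kb, the share called was close (14.9%), with 10.4% higher and 4.59% lower.

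With the mouse as a term in the model 364 distal peaks were higher and 252 lower, where 21.2% of all peaks were called, 12.5% higher and 8.79% lower. edgeR's quasi-likelihood test on recovered reads gave 302 higher and 158 lower, where 14.1% of all peaks were called, 9.93% higher and 4.19% lower. Single libraries of A moved the counts. Without A from mouse 1, 165 were higher and 42 lower, and without A from mouse 3, 145 and 55, where the lone A library is assumed to vary like the other populations. With all libraries of mouse 3 left out, 50 were higher and 6 lower. Without A of mouse 1 or A of mouse 3 the share called stayed above that of all peaks, but without all of mouse 3 it did not. The values come from sorted mixtures, so a change in the share of cells with an open site and a change in how open it is per cell cannot be told apart.

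The share called grew with distance from the start. It was 11.1% at 1 to 10 kb, 14.3% at 10 to 30 kb and 18.3% at 30 to 100 kb, and for other genes' peaks in the same bands 11.3%, 15.3% and 19.4%. At 1 to 10 kb 25 were higher and 24 lower of 441 peaks (35 and 25 by edgeR), against 785 and 397 of 10426 for other genes. At 30 to 100 kb 157 were higher and 79 lower of 1287, against 1061 and 408 of 7573 for other genes. These differences in direction were not tested. Outside the range, 163 peaks of the same genes beyond 100 kb were called, 20.6% of 793. Within 1 kb of a start 5 were higher and 3 lower of 193 (4.15%). Upstream of the start 117 (12.8%) were higher and 44 (4.81%) lower of 915, against 10.6% and 4.91% of other genes' peaks. Downstream 138 (8.47%) were higher and 103 (6.32%) lower of 1630, against 10.2% and 4.36%.

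**Figure D1:**
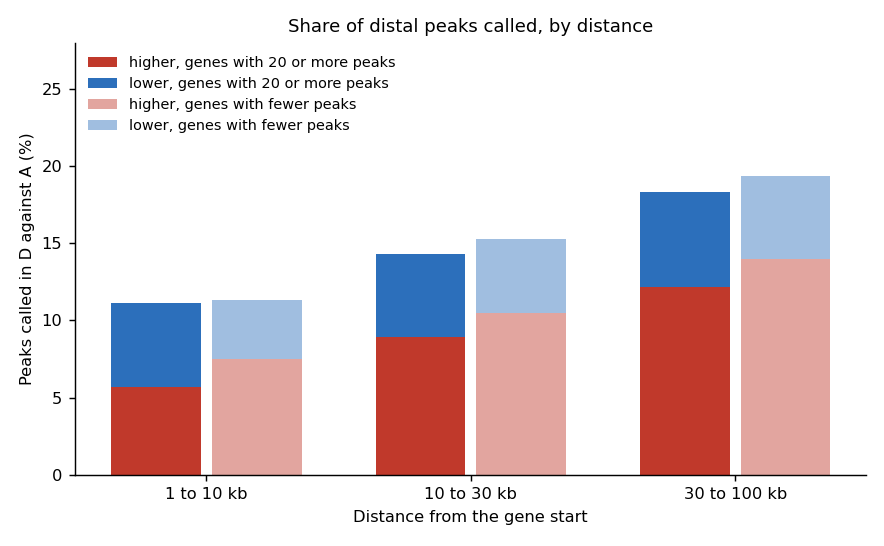
Share of distal peaks called in D against A (y axis, %) in 3 bands of distance from the assigned gene's start (x axis, kb), stacked as higher and lower; the dark bars are genes with 20 or more peaks and the pale bars genes with fewer. The share called is 11.1%, 14.3% and 18.3% in the dark bars and 11.3%, 15.3% and 19.4% in the pale bars.

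The table's peaks were ranked by mean level over all libraries, D and A included, and cut into 4 groups of equal size. In the lowest group 22% of 624 distal peaks were called, against 20.9% of all peaks. In the highest group 9.98% of 401 distal peaks were called, against 3.66% of all peaks and 9.47% of other genes' peaks at the same distances. A rise or fall itself moves a peak in this ranking, so no direction is read from it. Genes with 20 to 24, 25 to 34 and 35 or more peaks had 17.6%, 15.3% and 12.6% of their distal peaks called, and without the repeat arrays described below 17.9%, 15.5% and 14.8%. At the edge of the rule, genes with 18 peaks had 13 higher and 14 lower of 271, those with 19 had 53 and 32 of 369, those with 20 had 54 and 14 of 328, and those with 21 had 27 and 21 of 304.

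In D against A, 41 genes had only higher peaks called, 22 only lower, 45 both and 22 none, and with the mouse as a term 29, 17, 77 and 7. A gene held a median of 19 distal peaks and 12.4% of all peaks were called, so a called peak at a gene is not particular to these genes. Neighbouring distal peaks of a gene tended to move the same way where both were called. Outside the repeat arrays described below there were 2292 neighbouring pairs, of which 107 had both peaks called, 94 in the same and 13 in the opposite direction. Of called distal peaks 63.4% were higher, which alone makes same-direction pairs more common, and neighbouring peaks of other genes were not counted. Over all 2292 pairs the log2 changes of the neighbours correlated with r = 0.28, a description, since neighbours share libraries and local signal. By gap, r was 0.35 under 2 kb, 0.24 at 2 to 10 kb and 0.29 over 10 kb.

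**Figure D2:**
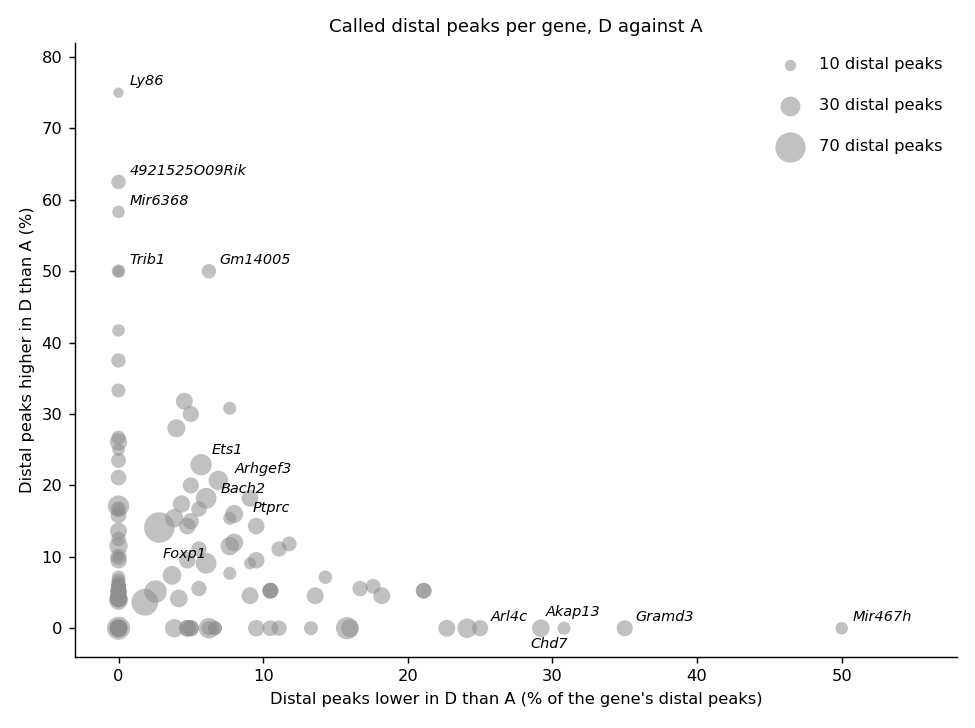
Each circle is 1 gene with at least 8 distal peaks, placed by the percentage of its distal peaks called lower (x axis) and higher (y axis) in D than in A, with area by the number of distal peaks. Genes lie along both axes, from Ly86 with 75% of its peaks higher to Mir467h with 50% lower, and Foxp1, Ets1, Bach2, Arhgef3 and Ptprc lie between with peaks called both ways. Each of these last genes had only 2 lower calls, which did not all hold when single libraries were left out.

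Of 46 listed transcription factors of T cell identity and quiescence, 14 had 20 or more peaks. Together they held 393 distal peaks, of which 34 (8.65%) were higher and 22 (5.6%) lower in D than in A. The shares were 8.7% and 3.74% of all peaks, promoter peaks included, and 10.4% and 4.59% of other genes' peaks at 1 to 100 kb. Foxp1, which keeps naive T cells quiescent, had the most distal peaks of any gene, 71, of which 10 were higher and 2 lower. Ets1, a founding member of the ETS factors and needed for T cell survival, had 8 higher and 2 lower of 35. Bach2, which represses effector genes, had 6 higher and 2 lower of 33. Ets1's neighbour Fli1, another ETS factor, had 0 higher and 4 lower of 25, and Klf13, a Kruppel-like factor, 1 and 4 of 19. Lef1, a partner of beta-catenin, had 2 higher and 1 lower of 39, and Ikzf1, the founding Ikaros factor, had 0 called of 19. With the mouse as a term the list had 47 higher and 41 lower. The 2 lower calls at each of Foxp1, Ets1 and Bach2 did not all hold when single libraries were left out. Some counts per gene rested on 1 library of A. Without A of mouse 1, 4 peaks were higher at Ets1, 0 lower at Fli1 and 1 lower at Klf13. Without A of mouse 3, 6 were higher at Foxp1 and 5 at Ets1, and 1 was lower at Fli1 and 2 at Klf13. Fli1 also had 2 lower peaks without D of mouse 2 or D of mouse 3.

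The Foxp1 peak with the largest rise lies in intron 1 (chromosome 6, 99340983 to 99341325), 74.6 kb from the assigned start. It had 11.6, 8.44 and 8.63 rppm in D of mice 1, 2 and 3, against 0.326 and 0.503 rppm in A of mice 1 and 3. All D libraries stood far above both A libraries, and those of C (1.18 to 1.59 rppm) and B (0.668 to 1.26 rppm) lay above A but far below D. The log2 change was 2.89 (SE 0.20, limma adjusted p = 1.11e-06). Of Foxp1's distal peaks 59 were not called in either direction.

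The Ets1 peak 43.7 kb upstream (chromosome 9, 32651960 to 32652778) had 11.9, 11.2 and 14.9 rppm in D, against 1.74 and 1.41 rppm in A. Its log2 change of 2.40 (SE 0.25, limma adjusted p = 1.87e-05) was the largest at that gene. At Bach2 the leading peaks lie upstream, and means are given with the SD over 3 libraries of D and 2 of A. The peak 15.8 kb upstream averaged 7.7 ± 1.01 rppm in D and 1.21 ± 0.436 in A (log2 1.98), and that 11.6 kb upstream 27.4 ± 4.1 rppm in D and 7.67 ± 1.45 in A (log2 1.71). A cluster of 3 peaks 7.11 to 9.13 kb inside Bach2 rose by 1.14 to 1.22 on the log2 scale, while a peak 83.1 kb upstream fell to 3.65 ± 0.533 rppm in D, against 7.82 ± 1.24 in A (log2 -0.92).

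Runx1, a factor of T cell development, had 2 higher and 2 lower of 21 distal peaks, and its highest log2 change was 1.54. It also held the lower peak with the largest fall in this list. The peak in its intron 5 (chromosome 16, 92640922 to 92641550) had 19.3, 16.9 and 17 rppm in D, against 43.4 and 36.3 rppm in A. B libraries held 31.3 to 38.4 and C libraries 25.9 to 37.5 rppm, so that the D libraries stood apart from all others (log2 -1.12, SE 0.15, limma adjusted p = 0.000192). Mbnl1, an RNA splicing regulator that the list includes, had 0 higher and 2 lower of 32, led by a peak 53.3 kb upstream (chromosome 3, 60419198 to 60419786). That peak had 3.85, 5.38 and 4.67 rppm in D, against 11 and 10.4 rppm in A (log2 -1.06, limma adjusted p = 0.00148), and its call was lost without mouse 3 (log2 -1.11, limma adjusted p = 0.131).

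**Figure D3:**
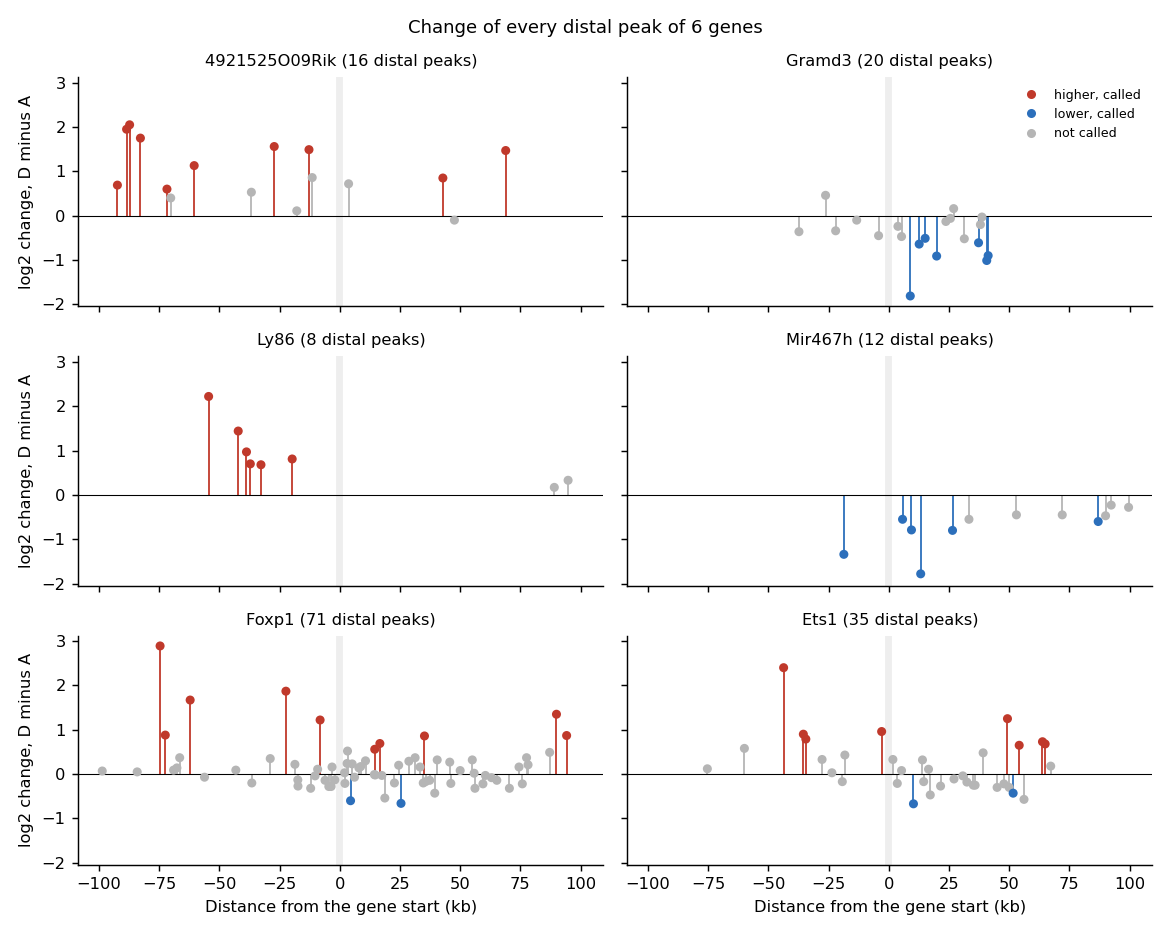
Log2 change in D minus A (y axis) of every distal peak of 6 genes against its distance from the gene's start (x axis, kb, negative upstream); red and blue mark peaks called higher and lower, grey those not called, and the grey band the 1 kb on either side that is left out. The 10 higher peaks of 4921525O09Rik and 6 of Ly86 contrast with the 7 lower of Gramd3 and 6 of Mir467h, while 59 of the 71 peaks of Foxp1 and 25 of the 35 of Ets1 are grey.

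Kinases, phosphatases and adaptors of T cell signalling were represented by 13 of 50 listed genes, with 261 distal peaks. Of these 36 (13.8%) were higher and 11 (4.21%) lower in D, and the median log2 change was 0.05. Among all peaks the shares were 8.7% and 3.74%, and among other genes' peaks at 1 to 100 kb 10.4% and 4.59%. The model with a mouse term gave 46 higher and 18 lower for this list. The list does not hold every signalling gene, so its shares depend on the genes it names. Outside it, Rhoh had 0 higher and 7 lower of 29 and Pag1 1 and 3 of 22, while the kinase Ptk2b had 7 and 1 of 22. Arhgef3, a guanine nucleotide exchange factor, had 6 higher and 2 lower of 29. Fyn, a Src family kinase at the T cell receptor, had 5 higher and 0 lower of 15. Cblb, a ubiquitin ligase that restrains activation, had 4 and 0 of 15, Pik3r1, the regulatory subunit of PI3 kinase, 4 and 1 of 23, and Ptprc, the phosphatase CD45, 4 and 2 of 25. Rasgrp1, which activates Ras, and Prkch, the protein kinase C eta, each had 3 higher and 0 lower. The 2 lower calls at Arhgef3 and the 2 at Ptprc did not all hold when single libraries were left out. Without A of mouse 3, 2 peaks were higher at Arhgef3, 2 at Fyn, 2 at Pik3r1, 1 at Cblb, 1 at Ptprc and 0 at Prkch. Without A of mouse 1, 2 were higher at Pik3r1, 1 at Ptprc and 0 at Prkch, and Prkch also had 0 without D of mouse 3 and 1 without D of mouse 2 or B of mouse 3.

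The Fyn peak in intron 2 (chromosome 10, 39434791 to 39435522) had 13.9, 16.7 and 17.7 rppm in D, against 1.63 and 1.41 rppm in A. The B libraries (1.6 to 3.34 rppm) overlapped A and the C libraries (4.01 to 4.23 rppm) lay above both, and the log2 change was 2.76 (SE 0.21, limma adjusted p = 2.33e-06). At Dock10, an exchange factor for Cdc42 and Rac, the peak 96.8 kb upstream (chromosome 1, 80855084 to 80855700) had 6.55, 5.53 and 3.66 rppm in D, against 0.218 and 0.101 rppm in A. It stayed at or under 0.589 rppm in every B and C library, and its log2 change was 2.40 (SE 0.21, limma adjusted p = 5.79e-06). Dock10 also had 2 lower peaks.

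Prkcq, the protein kinase C theta that acts below the T cell receptor and CD28, had strong changes in opposite directions. The peak 29.3 kb upstream (chromosome 2, 11142713 to 11143389) had 10.4, 14.1 and 10.3 rppm in D, against 2.39 and 2.31 rppm in A. The peak in intron 1, 33.6 kb downstream of the start (chromosome 2, 11205687 to 11206199), had 13.1, 13.5 and 13.5 rppm in D, against 28.3 and 29.3 rppm in A. Neither pair of groups overlapped, and the log2 changes were 1.89 and -1.05 (limma adjusted p = 5.5e-05 and 5.19e-05).

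Surface receptors and ligands gave 6 of 41 listed genes and 117 distal peaks, of which 16 (13.7%) were higher and 3 (2.56%) lower in D. Among all peaks the shares were 8.7% and 3.74%, and among other genes' peaks at 1 to 100 kb 10.4% and 4.59%. The mouse term gave 20 higher and 7 lower for this list. Il6st, the signalling chain gp130 shared by receptors of the interleukin 6 family, had 7 higher and 1 lower of 25. Icos, a costimulatory receptor, had 4 and 0 of 17. S1pr1, which guides exit from lymphoid organs, had 3 and 2 of 25 (1 higher without A of mouse 1), Tgfbr2, a TGF-beta receptor chain, 1 and 0 of 20, Cxcr4 1 and 0 of 10, and the homing receptor Ccr7 had 0 called of 20. The Icos peak 72.6 kb from the start (chromosome 1, 61050165 to 61050809) had 10.8, 11.1 and 9.31 rppm in D, against 1.2 and 0.705 rppm in A (log2 2.55, limma adjusted p = 3.54e-06). The Tgfbr2 peak in intron 6 (chromosome 9, 116090981 to 116091906) had 37.7, 39.6 and 35.4 rppm in D, against 9.68 and 6.95 rppm in A. It climbed through every population, with 11.1 to 14 rppm in B and 16.4 to 19 in C and no overlap between any of the 4 (log2 2.06, limma adjusted p = 1.81e-06). None of the 31 listed activation-induced factors, such as Nr4a1, Egr2 and Irf4, reached 20 peaks.

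**Figure D4:**
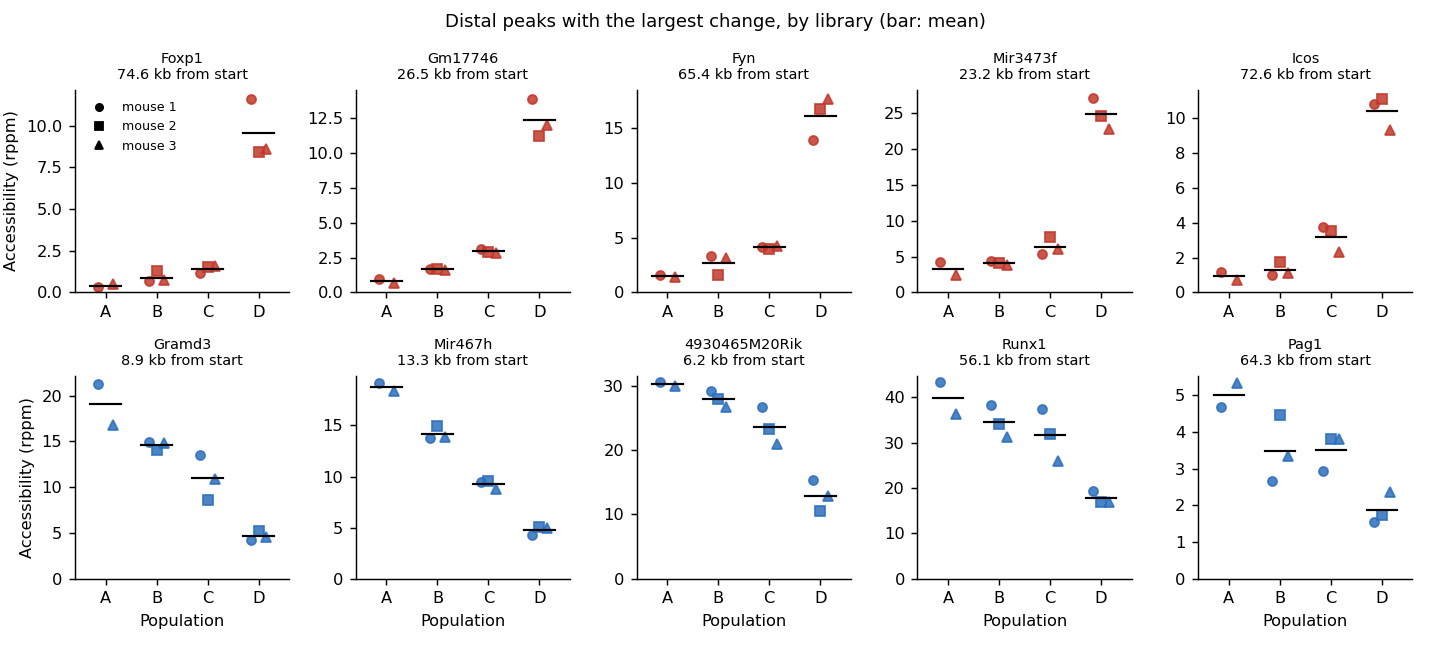
Accessibility in rppm (y axis, from 0) of the 5 distal peaks with the largest rise (top row, red) and the 5 with the largest fall (bottom row, blue) by the naming rule, in every library of populations A to D (x axis); symbols mark the mouse and bars the mean. In the top row D stands well above A, B and C, as at Foxp1 with 8.44 to 11.6 rppm in D against at most 0.503 in A, and in the bottom row values decline toward D.

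The other 97 genes, which no list holds, had 1774 distal peaks with 169 (9.53%) higher and 111 (6.26%) lower. Among all peaks the shares were 8.7% and 3.74%, and among peaks at 1 to 100 kb of genes with fewer than 20 peaks 10.4% and 4.59%. The mouse term gave 251 higher and 186 lower for the 97 genes. Genes with at least 8 distal peaks whose largest shares were higher are given first. At Ly86, which encodes MD-1, a partner of the B cell surface protein RP105, 6 of 8 were higher, all of them 19.8 to 54.5 kb upstream. The leading Ly86 peak (chromosome 13, 37290550 to 37291186) averaged 4.98 ± 1.38 rppm in D and 0.26 ± 0.0594 in A (log2 2.22, limma adjusted p = 6.36e-06). At 4921525O09Rik 10 of 16 were higher and 0 lower, with log2 changes up to 2.05. At Mir6368 7 of 12 were higher, and all 7 lie in introns of the noncoding host gene 2610307P16Rik, with log2 changes of 0.66 to 1.69. Trib1, a pseudokinase that directs protein degradation, had 7 higher of 14, of which 5 lie in introns of the neighbouring gene Nsmce2.

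Gm14005 (Morrbid), a noncoding RNA known in mouse myeloid cells for restraining the pro-apoptotic gene Bcl2l11, had 8 higher and 1 lower of 16. Of the higher ones 7 lie in its introns, as at chromosome 2, 128381706 to 128382351, with means of 9.94 ± 1.76 rppm in D and 1.62 ± 0.0141 in A (log2 2.05). Zfp608, a zinc finger gene, reached the same share as Trib1 and Gm14005, with 5 higher of 10. Btg1, an antiproliferative gene of resting lymphocytes, had 6 higher and 0 lower of 35, led by a peak 81.4 kb upstream with means of 21.2 ± 4.02 rppm in D and 8 ± 1.92 in A (log2 1.30). With the mouse as a term 14 peaks of 4921525O09Rik, 11 of Mir6368 and 9 of Gm14005 were higher. Without A of mouse 3 the higher peaks were 3 at Ly86, 4 at Mir6368, 2 at Trib1 and 2 at Zfp608, and without A of mouse 1 they were 3 at Zfp608.

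Single peaks of this group with the largest rises were at Gm17746, Mir3473f, Sh3kbp1 and Rreb1. The Gm17746 peak (chromosome 12, 25155301 to 25156005) had 13.9, 11.2 and 12 rppm in D, against 0.979 and 0.705 rppm in A (log2 2.86, limma adjusted p = 3.41e-07). The peak assigned to Mir3473f lies in intron 1 of Bcl2, the survival gene (chromosome 1, 106569356 to 106570349). It had 27, 24.6 and 22.7 rppm in D, against 4.24 and 2.42 rppm in A, with no overlap (log2 2.60, limma adjusted p = 2.17e-06). A second Bcl2 intron 1 peak, at 106606856 to 106607447, was lower in D, with 6.93, 9.31 and 7.51 rppm in D and 17 and 16.6 rppm in A (log2 -1.01). Sh3kbp1, the adaptor CIN85, and Rreb1, a zinc finger factor of Ras signalling, had log2 changes of 2.38 and 2.17.

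Among genes with the largest shares of lower peaks, Mir467h had 6 lower of 12, Gramd3 7 of 20, Akap13 4 of 13, Chd7 7 of 24 and Arl4c 5 of 20, and 0 higher at any of them. Gramd3 encodes a GRAM domain protein, Akap13 a scaffold of protein kinase A, Chd7 a chromatin remodeller and Arl4c a small GTPase. The leading Mir467h peak (chromosome 9, 115394774 to 115395392) had 4.24, 5.09 and 4.94 rppm in D, against 19.1 and 18.4 rppm in A. The populations descended without overlap, with 13.8 to 14.9 rppm in B and 8.82 to 9.56 in C (log2 -1.78, SE 0.13, limma adjusted p = 1.97e-06). The leading Gramd3 peak, in intron 1 (chromosome 18, 56440745 to 56441396), had 4.24, 5.24 and 4.58 rppm in D, against 21.3 and 16.8 rppm in A (log2 -1.81). All 7 lower Gramd3 peaks lie in its introns, 8.94 to 41.3 kb downstream of the assigned start. At Chd7 all 7 lie in its introns too, from 8.63 to 60 kb, and they include 1 at 47.9 ± 1.9 rppm in D and 67.2 ± 0.466 in A (log2 -0.48). Sgms1, a sphingomyelin synthase, had 6 lower of 38 and 0 higher, and Rhoh, a small GTPase needed for T cell receptor signalling, 7 lower of 29 and 0 higher. Without A of mouse 1 the lower peaks were 0 at Akap13, 4 at Chd7, 2 at Arl4c, 1 at Sgms1 and 1 at Rhoh. Without A of mouse 3 they were 0 at Akap13, 4 at Chd7, 2 at Arl4c, 3 at Sgms1 and 0 at Rhoh. Akap13 had 2 without D of mouse 1, and Sgms1 3 without B or C of mouse 3.

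The remaining named falls were at 4930465M20Rik, a noncoding gene beside Bcl11b, at Pag1, an adaptor that recruits the kinase Csk, and at Atp10a, a lipid flippase. The 4930465M20Rik peak (chromosome 12, 107728855 to 107729774) had 15.4, 10.5 and 12.8 rppm in D, against 30.5 and 30 rppm in A (log2 -1.19, limma adjusted p = 0.000106). Without mouse 3 the limma calls at Pag1 (adjusted p = 0.166), Chd7 (0.143) and Atp10a (0.0505) were lost, at log2 changes of -1.10, -1.07 and -1.24. The Rhoh peak with the largest fall (2.31, 6.83 and 6.16 rppm in D, against 10.3 and 11.5 in A, limma adjusted p = 0.0286) had a log2 change of -1.06. It was not called without mouse 3 (log2 -1.15, limma adjusted p = 0.341), without A of mouse 1 (log2 -1.13, adjusted p = 0.126), without A of mouse 3 (log2 -0.99, adjusted p = 0.197), or with D and A alone in the model (log2 -1.06, adjusted p = 0.114).

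Promoter peaks of the same genes were called at a share of 4.15%, against 3.63% of the 12013 peaks within 1 kb of other genes' starts. Of the 130 genes 112 had a peak within 1 kb of the start, and in 6 of them it was called. Of 93 genes with a called distal peak and a promoter peak, 4 had the promoter called. The largest promoter rise was at the noncoding gene Gm30214, with 16.9, 16.3 and 15.5 rppm in D, against 2.28 and 1.31 rppm in A (log2 2.65, limma adjusted p = 1.91e-06). At Gramd3 all 3 promoter peaks fell (log2 -0.93 to -1.19), and at Zfp608 the promoter rose (log2 1.00). At Lef1, Inpp4b and Arhgef3 the promoter rose by 0.37, 0.43 and 0.36 on the log2 scale, and their levels in D were 68.8 ± 3.69, 46.7 ± 4.51 and 69.6 ± 5.87 rppm, against 52.8 ± 0.965, 34.4 ± 0.325 and 54.1 ± 4.88 in A. Inpp4b, a lipid phosphatase gene with 38 peaks, had 1 peak within the distances taken.

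Across the 4 populations the largest step was the last. The 255 higher peaks had median levels of 3.9 rppm in A, 4.91 in B, 5.61 in C and 9.29 in D, and the 147 lower peaks 15.7, 14.4, 12.8 and 9.18. These peaks were chosen by D against A, so the medians describe where along the series the chosen difference arose. The D minus C step was the largest of 3 in 209 of the higher and 126 of the lower peaks, and the population means ran in one order from A to D in 179 and 106. The change reached 2-fold on the log2(rppm + 1) scale in 121 of the higher and 16 of the lower peaks.

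Tested on its own, D against C, the reporter-high against the reporter-intermediate cells among Ly6C negative cells, called 149 distal peaks higher and 53 lower, or 7.94%, against 6% of all peaks (4.51% higher and 1.49% lower). D against C and D against A share the D libraries. With the mouse as a term 221 were higher and 168 lower, against 11.4% of all peaks (6.82% higher and 4.53% lower). The count of 202 fell to 124 without C of mouse 1, 131 without C of mouse 2 and 133 without D of mouse 3. Named rises were at Dock10, with log2 2.11 (limma adjusted p = 2.16e-05), Foxp1 (2.10) and the upstream Prkcq peak (1.92), and named falls at Gramd3 (-1.07), the second Bcl2 intron 1 peak assigned to Mir3473f (-0.99) and Mir467h (-0.84). Without mouse 3 these 3 falls were not called, at log2 changes of -1.05, -0.98 and -0.89 (limma adjusted p = 0.106, 0.0921 and 0.0982).

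C against B, the Ly6C step at intermediate reporter, called 0 distal peaks by limma, against 0.0022% of all peaks. An unadjusted limma p below 0.05 was found at 85 of the 2545 distal peaks, against 1820 of all 45508 peaks. With the mouse as a term 2 were called, by edgeR 2 and by DESeq2 1, against 0.193%, 0.147% and 0.189% of all peaks. B against A, the reporter step within Ly6C positive cells, also called 0 by limma, against 0% of all peaks. Here an unadjusted limma p below 0.05 was found at 81 distal peaks, against 1218 of all peaks. The mouse term called 2 (0.0593% of all peaks), edgeR 0 (0%) and DESeq2 0 (0.0176%). Any difference among the 4 populations was called at 298 distal peaks (11.7%), against 9.64% of all peaks.

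The most open distal peaks were not called, and the first 5 by mean level lay in sets of closely spaced peaks. There were 4 such sets at repeated genes, namely Mir101c (41 peaks, chromosome 9, 3000571 to 3037525), the pseudogene Pisd-ps3 (55 peaks on an unplaced scaffold), Rn4.5s (10 peaks, chromosome 6) and the 5S ribosomal RNA gene Gm23284 (21 peaks, chromosome 8). How reads that match several copies were placed is not stated, so these 127 peaks may not measure separate regions. They took 14.5% to 22.6% of the signal of all the distal peaks and held 2 higher and 1 lower call. Without them, a count added after the data were seen, 253 were higher and 146 lower of 2418 (16.5%). Outside these sets the strongest was at Dad1 (chromosome 14, 54227146 to 54228456), 26.1 kb from the start, in the stretch toward the T cell receptor alpha gene. It had 175, 132 and 124 rppm in D, against 153 and 134 rppm in A (log2 -0.01, limma adjusted p = 0.979). Peaks at Gm19585, Fasl and Ikzf1 had means of 118 to 120 rppm and were not called either. The Filip1l peak (chromosome 16, 57391113 to 57391420) differed by mouse instead, with 42.8 to 81 rppm in the 4 libraries of mouse 1 and 107 to 169 in the 7 of mice 2 and 3 (D against A, limma adjusted p = 0.951).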

How the data were processed

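The deposited table holds 45508 peaks with values in RPM, named rppm per the file headers, for 11 libraries of 10000 cells, tagmented for 1 h at 37 °C per the labels' protocols. The submitters' processing notes name Bowtie, MACS2 and mm10, with no versions or roles. The scaling total, the read filters and the pooling for peak calling are not given in the sources used here. Values in each column fell on multiples of what 1 read is worth (100% of them, tolerance 6e-04 rppm), which gave whole reads per peak for edgeR 4.0.16 and DESeq2 1.42.0. In D of mouse 2 and in A, C and D of mouse 3 these steps did not pass a stricter test, so reads there are less certain. Reads carry no molecular identifiers, so the recovered reads are not counts of separate molecules.

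limma 3.58.1 (R 4.3.3) was fitted on log2(rppm + 1) to all 11 libraries, with a variance trend and a two-sided threshold of 0.05. Mice pair the libraries: deviations from population means correlated at 0.183 to 0.556 in 15 pairs from the same mouse and -0.433 to 0.203 in 30 other pairs. The model was tested on simulated data. The simulation held no mouse effect, so it does not cover the pairing of libraries by mouse.

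Named peaks were the 10 higher and 10 lower in D against A, and 3 and 3 per step, with the largest log2 change, called, with a higher population mean of 5 rppm or more and no overlap, 1 per gene and direction. The 5 highest levels, the 12 genes with most distal peaks, and the genes with the largest shares higher, lower or both ways (at least 8 distal peaks for shares) were added. Other peaks named were chosen after their values were seen. Members and gene lists were chosen with earlier results of these data known. Motif matches use RefSeq promoter windows, since no genome was used here. Replicates are separate mice, and p-values adjust over all peaks.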

Additional observations from a re-analysis of the deposited data

How the results depend on the processing

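No named change reversed under any of the alternatives. Of 6 counts under their alternatives, the following moved by over 1.5 times, and every other value stayed within that. Leaving out mouse 3, with the deepest libraries, gave 50 higher and 6 lower in D than A, 24 called in D against C and 37 for any difference. Testing only peaks that averaged 5 rppm or more, 1953 of the 2545 distal peaks, gave 138 higher, 88 in D against C and 165 for any difference. With only the 2 populations compared 54 were lower and 89 called in D against C. With the replicate block (mouse) 252 were lower, 389 were called in D against C, 553 for any difference, and 2 each in C against B and B against A, where limma without it called 0; edgeR gave 2 and DESeq2 1 in C against B. Genes with 15 or more peaks gave 480 higher, 277 lower, 376 in D against C and 571 for any difference, genes with 30 or more 51, 44, 50 and 67, and a limit of 50 kb gave 156 higher. Leaving out each library in turn gave 145 to 271 higher, 42 to 153 lower, 124 to 206 in D against C and 203 to 301 for any difference. Higher peaks were 63.4% of the distal peaks called in D against A, where the share among all called peaks was 69.9%. The share was 55.6% (all peaks 61%) after quantile normalization and 65.3% (70.8%) after median-of-ratios scaling. With D and A alone it was 78% (79.7%), with peaks of 5 rppm or more 56.8% (62.4%) and with the replicate block 59.1% (58.6%). The block ended no call at a named peak. Depth limits weak peaks, since 10 rppm rests on 26 reads in D of mouse 1. The search of peak centres for motifs was not run.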
